A study of Mus musculus with 36 samples.

Results

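The change in gene expression between day 3 (D3) and day 5 (D5) of reprogramming was measured in Zfp266 knockout (KO) mouse cells. The members are the 3 D5 KO and the 3 D3 KO libraries, 6 of the 36 RNA-seq libraries of the series, chosen by the titles of the samples. The starting cells were mouse embryonic fibroblasts (MEFs) of strain 129, taken from embryos at embryonic day 12.5 that had been made chimeric with ESCs carrying 3 transgenes. These are Cas9 under the EF1α promoter in the Rosa26 locus, a doxycycline-inducible cassette of Myc, Klf4, Oct4 and Sox2 with the mOrange reporter in the Sp3 locus, and a Nanog-GFP reporter. The transgenic cells of the D3 and D5 groups carried these alleles. The cultures received a lentiviral guide RNA 24 hours before induction with 300 ng/ml doxycycline and 10 ug/ml vitamin C in ESC medium. D3 KO and D5 KO cells received a guide RNA against Zfp266, and D3 WT and D5 WT cells, labelled wild type, received a non-targeting guide RNA. The transgenic MEFs were diluted with wild-type MEFs that lack the cassette, and cells with mOrange were sorted before RNA extraction. The study gives the purity after sorting only as a lower limit, so a library can hold some wild-type MEFs. A KO library is therefore a sorted population, not a clone, and the extent of editing was not given per library. For its KO MEF samples the study reports out-of-frame insertions or deletions in most Zfp266 transcripts, and it gives no such value for D3 and D5. The study calls the 3 samples of a group independent without saying whether that means separate cultures or embryos, so p-values measure the spread between these libraries.

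Reprogramming by Oct4, Sox2, Klf4 and Myc turns fibroblasts into induced pluripotent stem cells (iPSCs), which resemble embryonic stem cells (ESCs). It is known to start with loss of the fibroblast programme and with a mesenchymal-to-epithelial transition, while the endogenous network of pluripotency factors is switched on later. Zfp266 encodes a KRAB zinc finger protein, a class that binds DNA and recruits the corepressor TRIM28 to silence chromatin.

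The guide RNA against Zfp266 and the non-targeting one are shown because they define the 2 genotypes. The letters in capitals are the PAM, which follows the Zfp266 target in the genome.
Zfp266 guide: cagaagaatctataccgagAGG
Non-targeting guide: gcgaacttccgggacgcctc
The first guide is the Zfp266 guide that the study lists for its detailed analyses, and no source used here names the guide of the RNA-seq cells themselves. It matches chromosome 9 from 20505091 to 20505109 on the minus strand of GRCm38, in exon 6 of 9 of ENSMUST00000174462.7, and starts at coding base 184 of 1812. The non-targeting guide matches 0 annotated transcripts. Normalised read counts of Zfp266 (ENSMUSG00000060510), which are counts divided by a size factor per library, were 1824, 2049.5 and 1856 at D3 KO and 1507, 1646 and 1707 at D5 KO. The 3 D5 libraries were all below the 3 D3 libraries (log2FC -0.24, SE 0.08, FDR = 0.00838), and the FDR was 0.0937 without D3 KO replicate 2 and 0.0831 without D5 KO replicate 1. Small insertions and deletions at a cut site change the sequence and need not change the number of reads, so this count does not measure the edit.

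Total counts of the 6 libraries ranged from 29040333 to 39610939, so that 3 counts equal 2.31 to 3.15 normalised counts. That is the limit which a count of 0 allows, for counting error only. Over the 6 replicate pairs the variance between libraries was 5.38 to 10.1 times that of counting, and no library was a duplicate. The sorted cells were neither MEFs nor ESCs by their markers. The summed level of 5 fibroblast markers was 316832 normalised counts in KO MEFs, 21868 at D3, 9812 at D5 and 104 in KO ESCs. That of 4 pluripotent cell markers was 24.0, 324, 2586 and 96677 in the same groups. In bulk samples fewer cells of a type and less RNA per cell cannot be told apart. The part of remaining wild-type MEFs in the fibroblast sums was not tested.

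Between D3 and D5 most measured pluripotency and epithelial genes rose in KO cells and most mesenchymal transcription factors fell. DEGs were genes with FDR < 0.05 and log2FC > |1|, and 1206 genes were higher (5.74% of 21020 tested) and 738 lower (3.51%) at D5. By FDR alone 3047 genes rose (14.5%) and 3111 fell (14.8%), and rose and fell are used below for genes past that threshold. Counts of list members are to be read beside these shares. The 3 and 3 libraries did not overlap in 1178 of the 1206 rising DEGs, where the D5 libraries were higher in 23.9% of all genes tested. The same held for 704 of the 738 falling DEGs, where the D5 libraries were lower in 24.7% of all genes. The median log2FC over all genes tested was 0. The spread behind these tests is shared over the 36 libraries, MEFs, iPSCs and ESCs included. A model of only the 6 libraries called 1749 DEGs in place of 1944, and the gene lists whose counts moved most in it are given with both counts.

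The 4 transgene factors measured the cassette together with the endogenous genes, since reads from the cassette's coding sequence count for the mouse gene. Pou5f1 (Oct4) had 40927, 41213 and 46266 normalised counts at D3 and 49363, 55508 and 57729.8 at D5. The D5 libraries were all above the D3 libraries (log2FC 0.34, SE 0.11, FDR = 0.00624), and without D5 KO replicate 3 the FDR was 0.0554. Sox2 had 21968, 19723 and 21459 at D3 and 18569, 18875 and 19843 at D5, and the groups overlapped (log2FC -0.14, FDR = 0.588). Klf4 averaged 33570.0 ± 1266 (SD, n = 3) at D3 and 28968 ± 1361 at D5, and Myc 28506 ± 722 and 24541 ± 1511. Both were lower in every D5 library, and neither passed the test (FDR = 0.425 and 0.440). With only the 6 libraries in the model both passed as lower at D5 (FDR = 7.94e-04 and 9.60e-04), and Sox2 passed there with the replicate block (FDR = 0.0241).

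Of 18 pluripotency transcription factors, 14 rose, 1 fell and 3 did not pass the test, and the median log2FC was 1.71. The strongest evidence among all rising DEGs was for Esrrb, an orphan nuclear receptor of the naive pluripotency network. Its normalised counts were 68.5, 82.4 and 102 at D3 and 1336, 1646 and 1377 at D5, with no overlap (log2FC 4.11, SE 0.14, FDR = 3.92e-186). Tfcp2l1, another factor of that network, had 33.4, 49.3 and 47.6 at D3 and 713, 1178 and 791 at D5 (log2FC 4.37, SE 0.20, FDR = 2.48e-102). The lowest D5 library was more than 10 times the highest D3 library for both genes. Nanog, the homeobox factor whose reporter these cells carry, was close to the counting floor at D3 with 7.52, 3.58 and 11.7 normalised counts. At D5 it reached 207, 334 and 311 (log2FC 5.24, SE 0.32, FDR = 9.31e-56), which was still far from the 8311 ± 263 (SD, n = 3) of KO ESCs.

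Other factors were already present at D3 and rose further. Sall4, a zinc finger factor of ESCs, went from 546, 542 and 442 to 2263, 2714 and 2068 normalised counts (log2FC 2.20, FDR = 2.86e-55). Zscan10 went from 240.5, 301 and 252 to 980.5, 1211 and 875 (log2FC 1.95, FDR = 7.52e-47), and Zfp42 (Rex1) from 199.6, 232 and 238 to 665, 898 and 615 (log2FC 1.70, FDR = 1.37e-21). None of these groups overlapped, and the KO MEF means were 0.706, 3.56 and 6.05. Nr5a2, a nuclear receptor that can act on the Pou5f1 gene, rose from 71.0, 74.3 and 57.4 to 200.3, 265 and 203 (log2FC 1.72). Tfap2c, which is also a trophoblast factor, rose from 76.8, 57.3 and 78.8 to 347, 445 and 411 (log2FC 2.50). The lower-count factors Nr0b1 (log2FC 3.27, FDR = 1.34e-10), Klf2 (1.45, FDR = 6.39e-05) and Sall1 (0.75, FDR = 7.98e-05) rose as well.

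Prdm14, a repressor that protects the naive state, had 0 counts in all 3 D3 KO libraries and 5.72, 17.8 and 7.71 normalised counts at D5 (FDR = 1.39e-05). Against the 3-count floor of a D3 library its D5 mean was at least 3.86-fold higher. The D5 WT libraries had 0 counts, and the test of the difference between the KO and WT changes gave FDR = 0.277. Mybl2, a cell cycle regulated factor, rose by the smallest amount among the 14 (log2FC 0.38). Klf5 was the one member to fall, from 575, 516 and 509 to 371, 424 and 410.0 (log2FC -0.41, FDR = 8.17e-04), although its level in KO ESCs was higher than at either day (6196). Tbx3, Utf1 and Tfe3 did not pass the test, at log2FC 0.42, 0.32 and 0.24. Tbx3 and Tfe3 passed as higher with only the 6 libraries (FDR = 0.0104 and 0.00146), without D5 KO replicate 1 (Tbx3, 0.0292) and without D3 KO replicate 2 (Tfe3, 0.0461).

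**Figure D1:**
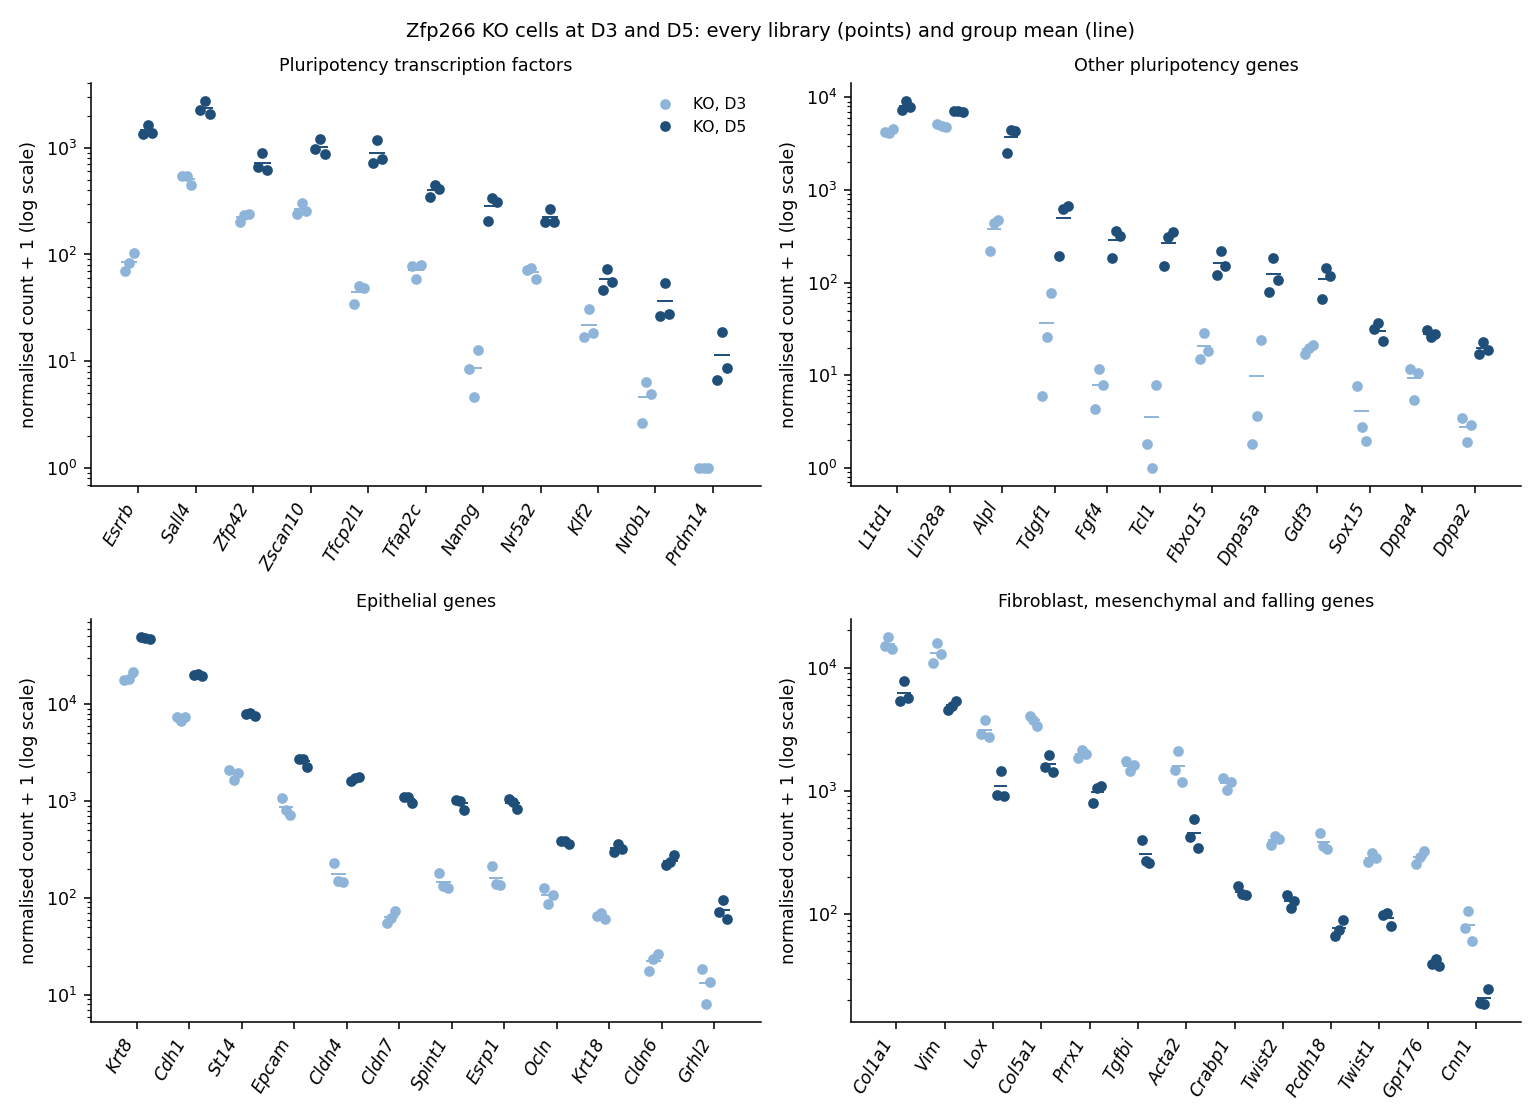
Normalised count plus 1 (log axis) of named genes in each D3 KO (light) and D5 KO (dark) library, with the group mean as a line, in 4 panels of gene groups. All genes drawn have 3 D5 libraries on one side of the 3 D3 libraries, and Esrrb moves from below 103 to above 1336.

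The stretches of 250 bases before the annotated start of 3 of these genes are shown. Nanog and Zfp42 are shown because the transgene encodes Oct4 and Sox2, and these factors read the octamer and its composite with a Sox site. Tfcp2l1 is shown for its TATA letters. The genes were picked, each with a different motif to mark, and the promoters of the other rising genes are not described. They are RefSeq promoters of GRCm38.p6, written in the direction of transcription, and both strands were searched. Capitals in Nanog (chr6:122707239-122707488, plus strand) mark the Sox-Oct element, which is CATTGT, any base and then ATGCAAA, read from the other strand and starting 75 bases before the start. Capitals in Zfp42 (chr8:43307010-43307259, minus strand) mark the 7-letter octamer ATGCAAA, 185 bases before the start and also on the other strand. Capitals in Tfcp2l1 (chr1:118627695-118627944, plus strand) mark the TATA box letters TATAAA, 28 bases before the start.
Nanog: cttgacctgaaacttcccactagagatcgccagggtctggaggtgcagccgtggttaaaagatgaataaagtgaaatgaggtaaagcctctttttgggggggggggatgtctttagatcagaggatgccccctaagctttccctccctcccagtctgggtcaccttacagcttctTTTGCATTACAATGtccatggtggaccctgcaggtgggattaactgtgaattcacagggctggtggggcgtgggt
Zfp42: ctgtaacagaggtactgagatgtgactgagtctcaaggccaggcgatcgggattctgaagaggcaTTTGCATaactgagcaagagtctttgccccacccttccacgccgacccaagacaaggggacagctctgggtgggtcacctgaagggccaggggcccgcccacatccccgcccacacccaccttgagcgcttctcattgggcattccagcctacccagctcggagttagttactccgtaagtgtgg
Tfcp2l1: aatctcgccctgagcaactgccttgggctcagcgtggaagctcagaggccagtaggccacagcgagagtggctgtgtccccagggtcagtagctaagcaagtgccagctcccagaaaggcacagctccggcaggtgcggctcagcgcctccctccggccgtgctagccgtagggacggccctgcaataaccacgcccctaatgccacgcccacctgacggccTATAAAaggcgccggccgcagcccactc
The Sox-Oct element, which contains the octamer, was in 1 of 27025 promoters of this length (0.0037%). The octamer was in 4.06% and the TATA letters in 13% of them. A match is a description of the letters and not of binding.

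Of 19 other pluripotency genes 14 rose, 0 fell and 5 did not pass the test, with a median log2FC of 1.70. The largest log2FC of a named gene was that of Tcl1. This gene, a coactivator of the AKT kinase, had 0.835, 0 and 6.81 normalised counts at D3 and 152, 307 and 353 at D5 (log2FC 6.81, SE 0.59, FDR = 3.20e-28). Fgf4, a growth factor that ESCs secrete, had 3.34, 10.7 and 6.81 at D3 and 182, 364 and 321 at D5 (log2FC 5.39, SE 0.36, FDR = 9.87e-49). The D3 values of both genes were near the counting floor, so their folds are imprecise, while every D5 value was at least 152. Tdgf1 (Cripto), a Nodal coreceptor, varied between replicates, with 5.01, 25.1 and 76.8 at D3 and 193, 624 and 669.7 at D5 (log2FC 3.80, SE 0.70, FDR = 9.64e-07). Its D3 libraries spanned more than 10-fold, and all were below the lowest D5 library. Tdgf1-ps1, an annotated pseudogene copy, moved with it (log2FC 4.60, FDR = 2.38e-11), and reads of the pair cannot be assigned with certainty.

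Alpl, the alkaline phosphatase used as a stain for reprogramming colonies, rose from 219.6, 442 and 469.7 to 2508, 4444 and 4361 normalised counts (log2FC 3.32, FDR = 1.05e-24). Its D5 mean was 10.0 times its D3 mean, and D5 KO was already above KO ESCs (2520.5). Dppa5a, an RNA-binding protein of ESCs, was at 0.835, 2.69 and 23.3 at D3 and 79.2, 183 and 106 at D5 (log2FC 3.81, FDR = 8.14e-09). Its D3 replicate 3 stood above the other D3 libraries, as it did for Tdgf1. Fbxo15, an F-box gene driven by Oct4 and Sox2, rose from 14.2, 27.8 and 17.5 to 120.2, 219 and 149 (log2FC 3.04, FDR = 9.46e-23), and Gdf3, a TGF-beta family ligand, from 15.9, 18.8 and 20.4 to 65.8, 145 and 118 (log2FC 2.58, FDR = 1.71e-19). Dppa2 (log2FC 3.37, FDR = 9.66e-06), Dppa4 (1.70, FDR = 1.66e-05) and Sox15 (3.18, FDR = 4.49e-06) rose from under 11 normalised counts in every D3 library.

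Other RNA-binding proteins of this list than Dppa5a, namely L1td1, Lin28a and Trim71, were abundant at D3 and rose little. L1td1 rose from 4223, 4151 and 4527 to 7292, 9056 and 7818 (log2FC 0.91), Lin28a by 0.51 and Trim71 by 0.75 on the log2 scale. Tdh, the threonine dehydrogenase on which mouse ESCs depend, rose by 0.33 (FDR = 0.00117). Dppa3, a maternal factor of late naive cells, had a mean of 0.699 normalised counts at D5, under the floor. Among 13 primed and early lineage genes 3 rose, namely Lefty1, Lefty2 and Nodal, all of the Nodal pathway. Lefty2 had 295, 340.4 and 354 at D3 and 846, 964 and 1056 at D5 (log2FC 1.54, FDR = 2.48e-04), and Lefty1 had log2FC 1.85 (FDR = 1.67e-04). Nodal itself overlapped between the days at under 18 normalised counts (FDR = 0.00464, and 0.112 without D5 KO replicate 2). Its FDR was 0.0909 with only the 6 libraries and 0.170 with those and the replicate block. Otx2 and Fgf5, which mark the primed state, averaged 1.82 and 2.04 at D5.

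Of 20 epithelial genes 18 rose, 17 of them as DEGs, 0 fell, and the median log2FC was 1.75. Cdh1 (E-cadherin), the adhesion protein of epithelia and ESCs, had 7334, 6631 and 7356 normalised counts at D3 and 19833, 20559.8 and 19410.3 at D5 (log2FC 1.49, SE 0.21, FDR = 1.40e-10). Its D5 KO mean was above those of KO iPSCs (9339.5) and KO ESCs (9729). The tight junction genes Cldn7, Cldn4, Cldn6 and Ocln had a larger log2FC than Cdh1. Cldn7 had 54.3, 60.9 and 72.9 at D3 and 1112, 1108 and 956 at D5 (log2FC 4.08, SE 0.40, FDR = 2.59e-22), Cldn4 went from 228, 150.5 and 146 to 1609.9, 1721 and 1753 (log2FC 3.28), and Cldn6 rose by 3.50. Ocln (occludin) rose by 1.84 and Epcam by 1.57. Rab25, an epithelial trafficking GTPase, had the second largest log2FC of the list (3.83, FDR = 3.32e-08).

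The regulators of the epithelial state rose in the same interval. Esrp1, which directs epithelial splicing, went from 211, 138 and 135 to 1056, 979 and 820.0 normalised counts (log2FC 2.56, FDR = 1.00e-12), and Grhl2, an epithelial transcription factor, from 17.5, 7.17 and 12.6 to 70.6, 95.5 and 59.3 (log2FC 2.58, FDR = 2.60e-09). Ovol1, a repressor of mesenchymal genes, rose by 0.61 from 688, 624 and 569. The membrane protease St14 rose from 2110.2, 1654 and 1966 to 7931, 8198 and 7476 (log2FC 2.04, FDR = 1.38e-11), and its inhibitor Spint1 from 179, 132 and 127 to 1037, 990.4 and 807 (log2FC 2.69, FDR = 2.66e-45). No D3 library of these genes reached its D5 libraries. The members that did not pass were the desmosomal Dsp (log2FC 0.37, FDR = 1.47e-09 with only the 6 libraries) and Cldn3 (0.14).

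Markers of stratified and trophoblast epithelium were present too, and their part in the epithelial result was not tested. The summed level of 7 keratinocyte markers was 15784 to 21464 normalised counts in the D3 KO libraries and 33908 to 36604 at D5. KO MEFs had 247 and KO ESCs 324. Of these markers 2 rose, Krt17, a keratin of activated epidermis, from 2252, 2768 and 3431 to 13790.2, 14436 and 16562 (log2FC 2.41, FDR = 2.45e-08) and Sprr1a (log2FC 1.42), and Krt5 and Krt14 did not pass the test (0.15 and 0.74), although Krt14 passed with the replicate block (FDR = 0.00851). Of 5 trophoblast markers 2 rose and 1 fell. Elf5, a factor of trophoblast stem cells, had 0, 1.79 and 0 at D3 and 13.4, 32.5 and 27.0 at D5 (FDR = 9.90e-06), and Krt7 rose by 2.35, while Hand1 fell by 1.63 on the log2 scale. Cdx2, the defining factor of trophectoderm, was not analysed here.

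**Figure D2:**
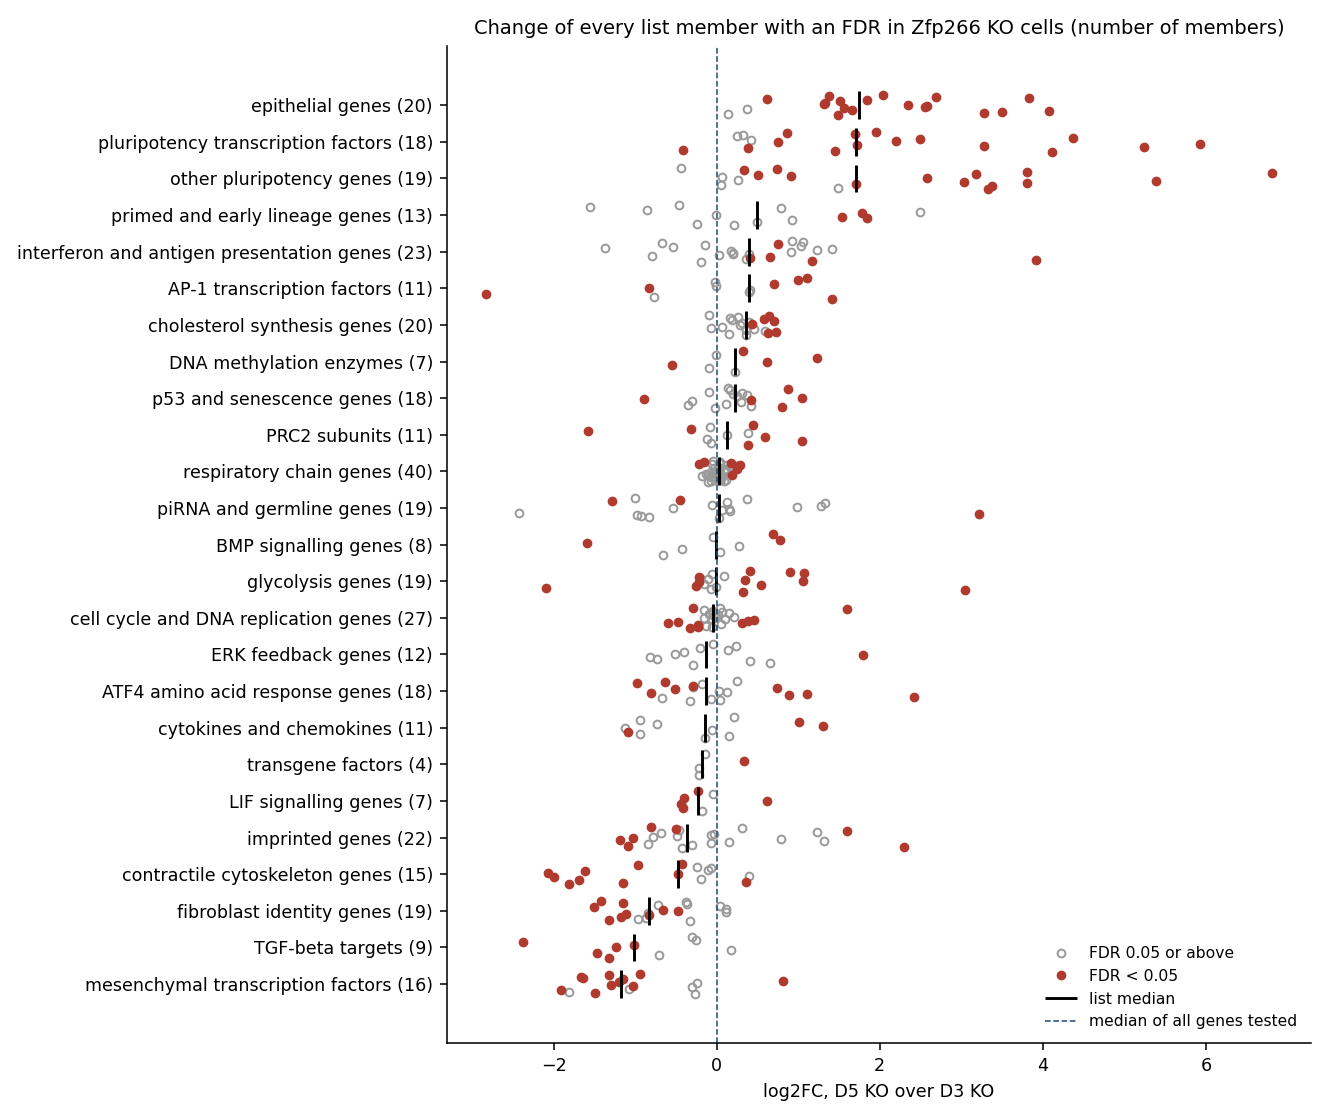
log2FC of D5 KO over D3 KO (x axis) for every member of 25 gene lists with an FDR (points), filled where FDR < 0.05, with the list median as a bar and the median of all genes tested as a dashed line at 0. The medians run from 1.75 for epithelial genes to -1.17 for mesenchymal transcription factors.

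Several genes with the clearest rises belonged to no list, and 4 of them were far lower in KO MEFs, KO iPSCs and KO ESCs than at D5 KO. Misp, an actin-binding protein of the mitotic spindle, had 387, 385 and 353 normalised counts at D3 and 3041, 3407 and 2866 at D5 (log2FC 3.05, SE 0.11, FDR = 1.01e-154). Its means were 8.11 in KO MEFs, 2716 at day 7 (D7), 45.4 in KO iPSCs and 17.8 in KO ESCs. S100a14, a calcium-binding protein of epithelia, went from 81.0, 51.1 and 58.3 to 811, 629 and 686 (log2FC 3.47, SE 0.16, FDR = 1.82e-97), with 9.55 in KO MEFs and 3.09 in KO ESCs. Pax5, known as the master factor of B cells, went from 37.6, 38.5 and 33.1 to 463, 576 and 506 (log2FC 3.82, SE 0.19, FDR = 4.24e-85), and Chdh, a mitochondrial choline dehydrogenase, from 38.4, 26.0 and 39.9 to 902, 878 and 914 (log2FC 4.69, SE 0.24, FDR = 1.08e-78). The KO ESC means of these 2 genes were 17.7 and 2.74. Slc8b1, a mitochondrial sodium-calcium exchanger, rose from 349.9, 356 and 394 to 1499, 1670.2 and 1523 (log2FC 2.09) and had 403 in KO MEFs. Trh, the precursor of thyrotropin-releasing hormone, rose from 23.4, 14.3 and 15.6 to 299, 511 and 418 (log2FC 4.52, FDR = 4.68e-45) and went on to 6039 at D7 and 5441 in KO ESCs.

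Among the 1206 rising DEGs, 644 were ESC-associated, meaning that they were DEGs with the higher level in WT ESCs when these were set against WT MEFs, which is 53.4% (Clopper-Pearson 95% interval 50.5 to 56.2) beside 25.8% of all genes. A further 225 (18.7%, beside 29.5% of all genes) were MEF-associated. In 394 of the rising DEGs (32.7%, interval 30.0 to 35.4) the WT cells at D5 were above both WT MEFs and WT ESCs, beside 9.95% of all genes. The WT MEF, WT ESC and D5 WT libraries are not among the 6 compared here, but genes are not independent replicates and these intervals describe counting only. In KO cells the median level of these 394 genes, as log2 of normalised counts plus 1, was 1.73 in MEFs, 5.43 at D3, 7.37 at D5, 7.36 at D7 and 3.21 in ESCs. That of the 644 ESC-associated genes was 2.06, 4.11, 6.06, 7.49 and 7.21 in the same groups. The rise from D3 to D5 follows from how these genes were chosen. Their order against MEFs and ESCs was set in the WT libraries by the choice of class. No D7 value was used in the choice. The first class was level from D5 to D7 while the second was higher at D7.

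**Figure D3:**
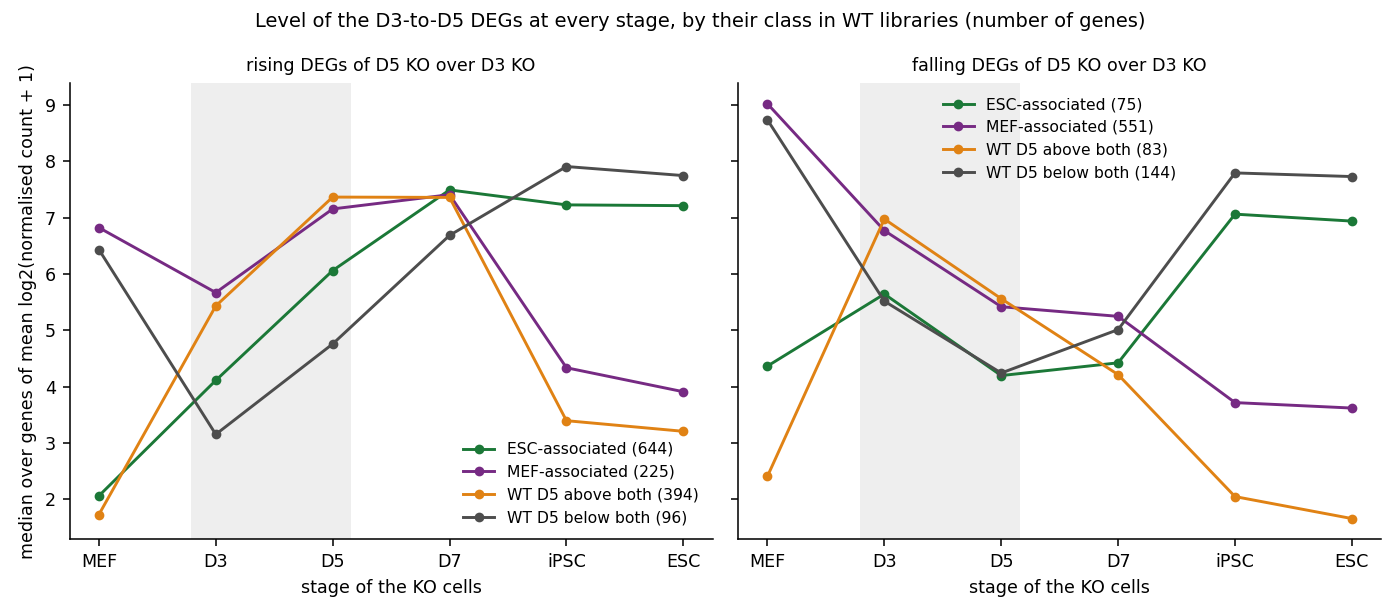
Median over genes of the mean log2 of normalised count plus 1 (y axis) at each stage of the KO cells, for rising (left) and falling (right) D3-to-D5 DEGs split by their class in WT libraries, with the number of genes. A gene can be in an ESC or MEF class and in an above-both or below-both class, and the 394 rising genes above both stand at 7.37 at D5 and 3.21 in ESCs. The D3-to-D5 direction follows from the choice of the genes, and the classes were set by WT MEF, ESC and D5 levels.

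Of 20 fibroblast identity genes, 19 had an FDR, 9 of these fell (15 with only the 6 libraries, and 16 with those and the replicate block), 0 rose, and the median log2FC was -0.83. Col1a1, the chain of type I collagen, had 15049, 17726 and 14193 normalised counts at D3 and 5365, 7795 and 5634 at D5 (log2FC -1.32, SE 0.41, FDR = 0.00627). KO MEFs had 157966. Col5a1 fell from 4059, 3756 and 3368 to 1562, 1961 and 1428 (log2FC -1.18, SE 0.17, FDR = 8.05e-11), Col6a1 by 1.12 and Col5a2 by 0.83 on the log2 scale. Lox, which crosslinks collagen, fell from 2897, 3730.0 and 2728 to 927, 1459 and 909 (log2FC -1.51, FDR = 0.00600), and the intermediate filament gene Vim from 10924, 15847 and 12877 to 4558, 4839 and 5386 (log2FC -1.42, FDR = 0.00157). For Col1a1 and Lox replicate 2 was the highest library at both days, and the groups still did not overlap. S100a4 fell by 1.15, whereas Dcn, Icam1, Cd44 and Thy1 did not pass the test, at log2FC 0.11, 0.11, -0.33 and -0.38, and of these Cd44 and Thy1 passed with only the 6 libraries (FDR = 4.03e-09 and 0.0201). Fn1 and Fbn1 passed narrowly (FDR = 0.0153 and 0.0425). Fn1 lost the call without D3 KO replicate 1 or 2 or D5 KO replicate 1 or 3 (FDR up to 0.175) and with only the 6 libraries (FDR = 0.0921). Fbn1 lost it without each library in turn but D3 KO replicate 1 (FDR up to 0.162) and with the replicate block (FDR = 0.0509).

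Of 16 mesenchymal transcription factors 10 fell, 9 as DEGs, and 1 rose. The median log2FC was -1.17, or -1.11 with the member that was at 0 in one group set to its bound. Twist2, a basic helix-loop-helix factor of mesenchyme, had 359.9, 433 and 406 normalised counts at D3 and 142, 110.2 and 126 at D5 (log2FC -1.66, SE 0.15, FDR = 1.36e-27). Its relative Twist1 fell from 266, 309.9 and 285 to 98.2, 101 and 78.6 (log2FC -1.64, SE 0.22, FDR = 8.91e-12). Prrx1, a homeobox factor of limb and craniofacial mesenchyme, fell from 1839, 2152 and 1992 to 794, 1046 and 1093 (log2FC -1.03, SE 0.15, FDR = 5.50e-11), and Zeb1, a repressor of Cdh1, from 224, 234 and 189 to 67.7, 87.1 and 103 (log2FC -1.32, FDR = 1.26e-07). The bone factor Runx2 (log2FC -1.19), Foxc2 (-1.49), Meox2 (-1.91) and Snai2 (-1.15) also fell. Snai2 lost the call with only the 6 libraries and the replicate block (FDR = 0.0706). Snai1, whose protein represses epithelial genes, was the exception and rose from 85.2, 89.6 and 104 to 137, 178 and 173 (log2FC 0.81, FDR = 7.19e-05). Its D5 level remained far under that of KO MEFs (1700.1).

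Of 15 contractile cytoskeleton genes 9 fell and 1, Actn1 (log2FC 0.36), rose, and the median log2FC was -0.48. Acta2, smooth muscle actin, had 1472, 2101 and 1174 normalised counts at D3 and 419.6, 589 and 343 at D5 (log2FC -1.81, SE 0.52, FDR = 0.00311), and Cnn1 (calponin) 76.0, 106 and 59.3 and 18.1, 17.8 and 23.9, a D3 mean 4.03 times the D5 mean (FDR = 3.01e-08). The abundant actin crosslinker Flna fell by only 0.48 on the log2 scale (FDR = 0.00415), and Tagln did not pass the test (log2FC -0.07). Of 9 TGF-beta targets and ligands 5 fell, all as DEGs, and 0 rose (8 and 1 with only the 6 libraries). Tgfbi, a matrix protein induced by TGF-beta, had 1744, 1436 and 1616 at D3 and 397, 266 and 259.7 at D5 (log2FC -2.38, SE 0.29, FDR = 3.98e-14). The activin subunit Inhba fell by 1.32 and the ligands Tgfb1 by 1.23 and Tgfb2 by 1.01 on the log2 scale.

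Among all falling DEGs the strongest evidence was for Pcdh18, a protocadherin, with 455, 354 and 338 normalised counts at D3 and 65.8, 73.4 and 87.9 at D5 (log2FC -2.33, SE 0.16, FDR = 2.66e-45). Chst2, which sulphates glycans, fell from 559, 519.5 and 467 to 156, 128 and 148 (log2FC -1.84, FDR = 2.67e-32), and Cpd, a carboxypeptidase, from 1334, 1461 and 1407 to 539, 551 and 553 (log2FC -1.36, FDR = 8.88e-32). St8sia2, a polysialic acid synthase, fell by 2.35 on the log2 scale. All 4 had their highest KO mean in MEFs. Ak4, a mitochondrial adenylate kinase, was different, with 407 in KO MEFs, 8329.8, 7569 and 8808 at D3 and 3620.4, 3006 and 3719 at D5 (log2FC -1.26, SE 0.10, FDR = 2.91e-36). Pde3b, a cAMP phosphodiesterase, had 463 in KO MEFs, 804, 741 and 838 at D3 and 249.9, 204 and 220.4 at D5 (log2FC -1.82, FDR = 9.85e-34). For these 2 genes D3 was thus above both the start and D5.

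The largest falls were of Crabp1, a retinoic acid binding protein, from 1281, 1014 and 1181 to 169, 144 and 141 normalised counts (log2FC -2.94, SE 0.24, FDR = 1.24e-30). The D3 mean was 7.66 times the D5 mean, and KO MEFs had 32927. Megf10, a phagocytosis receptor, fell from 356, 374 and 467 to 55.3, 40.9 and 60.1 (log2FC -2.93, FDR = 1.90e-16), and the orphan receptor Gpr176 from 255, 290.2 and 325 to 38.1, 42.0 and 37.0 (log2FC -2.90, FDR = 1.63e-26). Lpl (lipoprotein lipase) and Rbp4 (retinol binding protein) each fell by 2.48. No D5 library of these genes reached a D3 library. Of the 738 falling DEGs, 551 were MEF-associated (74.7%, interval 71.4 to 77.8, beside 29.5% of all genes) and 75 ESC-associated (10.2%). In 144 (19.5%, beside 8.73% of all genes) the WT cells at D5 were below both WT MEFs and WT ESCs.

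The signalling lists moved little as groups. Their counts stand beside 14.5% of all genes that rose and 14.8% that fell. Among 12 ERK feedback genes Etv5, an ETS factor of ESCs, was the one to pass the test (2 rose and 2 fell with only the 6 libraries, and 1 fell without D3 KO replicate 3). It went from 315, 319.8 and 249 to 820.2, 1386 and 859 normalised counts (log2FC 1.79, SE 0.23, FDR = 1.30e-13), and D5 replicate 2 was the highest. Of 7 genes of LIF signalling 4 fell (1 by edgeR, or with any 1 of the 6 libraries left out) and 1 rose. The kinase gene Jak1 fell by 0.42 on the log2 scale and the target Pim1 rose by 0.62 (FDR = 0.00196), while the falls of Stat3, Lifr and Pim3 had log2FC -0.23, -0.43 and -0.41 and lost the call whichever of the 6 libraries was left out. Of 8 BMP genes 2 rose and 1 fell. The risers were 1 without replicate 1 or 2 of either day, and the falls 2 with only the 6 libraries or without D3 KO replicate 1 or D5 KO replicate 3. The target Id3 went from 514, 623 and 499 to 151, 211 and 182 (log2FC -1.59, SE 0.20, FDR = 2.76e-14), and the inhibitor Smad7 rose by 0.69. Id1, another target, did not pass (FDR = 0.0514, and 3.28e-04 with only the 6 libraries).

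AP-1, a family of stress and growth factor responsive factors known to sustain the fibroblast state, changed in both directions, with 4 of 11 members higher and 2 lower. Atf3 rose from 329, 289 and 309 to 855, 732 and 878 normalised counts (log2FC 1.41, FDR = 7.42e-12), Maff from 382, 324 and 352 to 729.6, 726 and 814 (log2FC 1.10, FDR = 1.06e-13) and Jund from 2944, 3317 and 3230.4 to 6074, 6889 and 5934 (log2FC 0.99, FDR = 2.61e-06). Jun rose by 0.70 (FDR = 0.0123, and 0.0662 without D3 KO replicate 2). Fosl1 (Fra-1) went from 1419, 1141 and 1119 to 834, 657 and 587 (FDR = 0.0466), a call lost without each library in turn but D5 KO replicate 1 (FDR up to 0.171) and with the replicate block (FDR = 0.0549), and Batf3 fell from 8.35, 10.7 and 13.6 to 2.86, 1.05 and 0.771. Among 23 interferon and antigen presentation genes 5 rose and 0 fell, beside 14.5% and 14.8% of all genes. The risers were led by Bst2, an antiviral tether of virions, from 605, 698 and 628 to 1394, 1526 and 1424 (log2FC 1.17, FDR = 3.17e-23). Stat2 rose by 0.75 and Cxcl10 had 2.86, 8.39 and 15.4 at D5 (FDR = 0.00716, and 0.0535 without D5 KO replicate 3). Of 11 cytokines and chemokines with an FDR, Cxcl16 and Il1rn rose (log2FC 1.31 and 1.01) and Csf1, the macrophage growth factor that fibroblasts make, fell from 492, 545 and 490.1 to 221, 229.8 and 264 (log2FC -1.09, FDR = 2.83e-18).

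Of 27 cell cycle and DNA replication genes 4 rose, 6 fell and 17 did not pass, and the median log2FC was -0.05. Over all genes 14.5% rose and 14.8% fell, and the cell cycle risers were near that share. Tk1, the S-phase thymidine kinase, stood apart with 272, 295 and 277 normalised counts at D3 and 814, 965 and 787 at D5 (log2FC 1.60, SE 0.11, FDR = 4.34e-46). The DNA replication genes Cdc6 (log2FC 0.46) and Cdc45 (0.39) and the cyclin gene Ccnb2 (0.31) were the other risers, all by under 0.5. Ccne1, cyclin E, fell from 466, 499.8 and 564 to 333, 385 and 294 (log2FC -0.60, FDR = 4.44e-04), and the mitotic kinase Aurka by 0.33. Of 18 p53 and senescence genes 4 rose and 1 fell, and with only the 6 libraries 12 rose and 2 fell (11 and 2 with the replicate block). The proapoptotic Bbc3 (Puma) rose from 767, 756 and 799 to 1279, 1405 and 1364 (log2FC 0.80, FDR = 1.89e-06) and Trp53inp1 by 0.87, while the death receptor gene Fas fell from 137, 149.6 and 142 to 76.3, 64.0 and 88.6 (log2FC -0.89, FDR = 3.69e-06). Cdkn1a (p21) and Cdkn2a, the inhibitors that restrain reprogramming, did not pass, at log2FC 0.11 and 0.30, but passed as higher with only the 6 libraries (FDR = 0.0377 and 0.00221).

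Metabolic genes changed in both directions. Of 19 glycolysis genes 8 rose and 4 fell, and the median log2FC was -0.01. Eno3, the muscle enolase, fell from 1509.8, 1862 and 2327 to 450.2, 451 and 433 normalised counts (log2FC -2.09, SE 0.25, FDR = 1.25e-14), and Aldoc, an aldolase, rose from 8.35, 8.06 and 7.78 to 69.6, 42.0 and 87.1 (log2FC 3.04, SE 0.45, FDR = 3.93e-10). The glucose transporters Slc2a3 and Slc2a1 rose by 0.90 and 1.07, and Pdk1 by 1.05. D5 replicate 3 was the highest library for Slc2a1 and Pdk1. Of 40 respiratory chain genes 6 rose (15%, beside 14.5% of all genes) and 2 fell, none by more than 0.3. The risers were 3 without D3 KO replicate 1, and the falls were 0 without D3 KO replicate 3 and 1 without D3 KO replicate 2 or D5 KO replicate 1 or 2. The lowest FDR in this list was that of Sdha (log2FC 0.29, SE 0.05, FDR = 6.15e-08). Of 20 cholesterol synthesis genes 6 rose and 0 fell (15 and 0 with only the 6 libraries), with Fdft1 at 0.73, Mvd at 0.70 and the regulator Srebf2 at 0.64. Of 18 ATF4 amino acid response genes 4 rose and 5 fell, beside 14.5% and 14.8% of all genes. The falls were 9 with only the 6 libraries and 3 without D3 KO replicate 1 or D5 KO replicate 2. Cth, which makes cysteine, went from 365, 424 and 425 to 1996, 2463 and 2052 (log2FC 2.42, SE 0.26, FDR = 1.23e-18), and Mthfd2, of mitochondrial folate metabolism, from 6246, 6086 and 6084 to 3856, 3265 and 3449.7 (log2FC -0.80, FDR = 3.70e-07).

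Of 7 DNA methylation enzymes 3 rose, or 1 without D3 KO replicate 2 or D5 KO replicate 2, and 1 fell. Tet2, a 5-methylcytosine dioxygenase, went from 1344, 1538 and 1355 to 2980.4, 3501 and 3459.7 normalised counts (log2FC 1.23, SE 0.16, FDR = 3.45e-13), and its relative Tet1 from 249, 208 and 258 to 264, 446 and 386 (log2FC 0.62, SE 0.19, FDR = 0.00565) with the highest D3 library next to the lowest D5 library. The FDR of Tet1 was 0.0981 if D5 KO replicate 2 was left out and 0.0508 if D3 KO replicate 2 was. Tdg, the glycosylase that completes demethylation, fell from 4257, 3992 and 4400.2 to 2972, 2789.6 and 2875 (log2FC -0.55, FDR = 7.20e-13). Of 11 PRC2 subunits 4 rose and 2 fell, with Ezh1 at 1.04, Jarid2 at 0.60, Suz12 at 0.45 and Rbbp4 at -0.32. Of 19 piRNA and germline genes with an FDR 1 rose and 2 fell, or 4 without D3 KO replicate 2. The riser was Piwil2, a PIWI protein of germ cells, from 220.5, 191 and 165 to 1694, 2092 and 1595 (log2FC 3.22, SE 0.24, FDR = 8.61e-38). The defining germ cell genes Ddx4 and Dazl had D5 means of 9.80 and 0.350, and Tdrd6 and Tdrd7 fell by 1.28 and 0.45.

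Of 22 imprinted genes 2 rose and 5 fell, or 6 and 8 with only the 6 libraries and 3 falls without D5 KO replicate 2, and the median log2FC was -0.36. Over all genes 14.5% rose and 14.8% fell. The risers were Dio3, from 42.6, 30.5 and 47.6 to 153, 226 and 216 normalised counts (log2FC 2.30, FDR = 9.95e-13), and Rtl1, from 47.6, 42.1 and 52.5 to 172, 134 and 123 (log2FC 1.59, FDR = 9.03e-04). Both lie in the Dlk1-Dio3 domain. Dlk1, another paternal gene of that domain, fell from 1175, 1003 and 1173 to 555, 439 and 576 (log2FC -1.09, FDR = 0.00745, and 0.050 without D5 KO replicate 2). The maternal Meg3 and Rian did not pass (log2FC 1.32 and 1.23), but passed with only the 6 libraries (FDR = 4.07e-13 and 5.91e-42). Mest and Ndn, other paternally expressed genes, fell by 1.18 and 1.02. Igf2 and H19 did not pass, at log2FC -0.07 and -0.84.

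Markers of cell types that a sorted population could hold are given beside the 14.5% of all genes that rose and the 14.8% that fell. Of 6 macrophage markers with an FDR 1 rose, Cd68 (log2FC 1.12), while the defining Csf1r, Adgre1 and Ptprc had D5 means of 9.34, 0 and 9.68 normalised counts. Of 5 endothelial markers 1 rose, Pecam1, from 30.9, 32.2 and 44.7 to 62.0, 133 and 123 (log2FC 1.57, FDR = 7.02e-06), a gene that KO ESCs express at 2447. Cdh5, which defines endothelium, had a D5 mean of 1.12. Of 3 muscle markers measured Des fell by 1.70. Of 6 neural markers Map2 rose by 0.72, with 2 risers without D3 KO replicate 1 or D5 KO replicate 2, with only the 6 libraries or with the block. The summed level of the 6 was 29701 to 33656 at D3 and 32734 to 35086 at D5. It was far lower in KO MEFs (2289) and in KO ESCs (8122). Of 7 primitive endoderm markers 0 rose (2 with only the 6 libraries) and Dab2 fell by 1.48 (FDR = 0.0182, and 0.0767 and 0.0588 without D3 KO replicate 2 and D5 KO replicate 3), with the defining Sox17 at a D5 mean of 0.350. The summed level of the 7 was nonetheless higher at D5, with 9201 to 12603 in the D3 KO libraries and 13041 to 15296 in the D5 KO libraries. KO MEFs had 5390 and KO ESCs 2588.

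The whole profile was also placed on an axis from WT MEFs (0) to WT ESCs (100), by the log2 levels of 11867 ESC- and MEF-associated genes. The D3 KO libraries stood at 40.9, 39.9 and 42.5 and the D5 KO libraries at 49.5, 49.1 and 49.6. The groups did not overlap, and the difference was 8.32 (two-sided exact permutation test, p = 0.1, the smallest that 3 against 3 allows). By the 5565 ESC-associated genes alone the position moved by 11.7, from 29.6 ± 1.15 to 41.3 ± 0.469 (SD, n = 3). By the 6302 MEF-associated genes alone it moved by 6.06, from 48.8 ± 1.98 to 54.9 ± 0.703. At both days the cells stood farther along by the MEF-associated than by the ESC-associated genes.

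**Figure D4:**
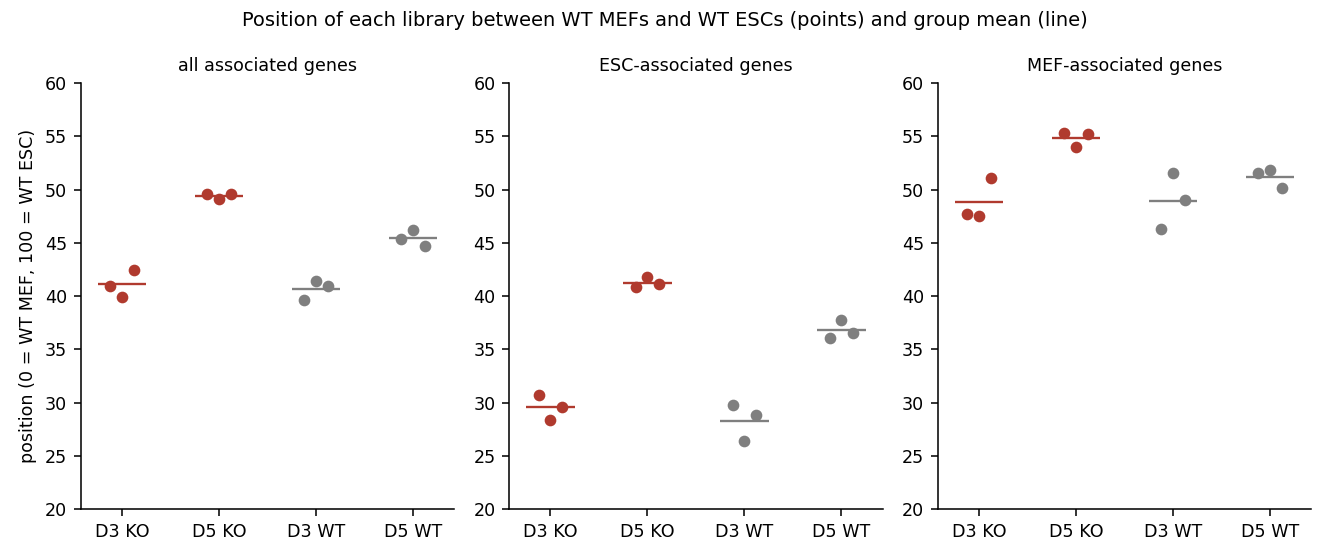
Position of each D3 and D5 library (points, KO in red and WT in grey) and the group mean (line) between WT MEFs at 0 and WT ESCs at 100, by all associated genes, ESC-associated genes and MEF-associated genes. The D5 KO libraries lie between 49.1 and 49.6 by all genes, above the 44.7 to 46.2 of the D5 WT libraries.

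The same interval in WT cells gives the background of the KO change. There 1058 genes rose as DEGs (4.94% of 21436 tested) and 394 fell (1.84%), and by FDR alone 12.4% rose and 12.7% fell. Of the 1206 rising DEGs of KO cells, 790 were also rising DEGs in WT (65.5% of the KO list and 74.7% of the WT list), and of the 738 falling DEGs 315 were (42.7% and 79.9%). The sign in WT was the same for 1172 of 1206 and 723 of 738, and 0 had the opposite sign with FDR < 0.05 in WT. The rising DEGs of KO had a median log2FC of 1.80 in KO and 1.48 in WT, and the falling ones -1.41 and -0.99. These lists were chosen on KO values. For the DEGs chosen on WT values the medians were 1.60 in KO and 1.74 in WT for rising and -1.47 and -1.38 for falling DEGs. Across 13285 genes with a mean of at least 100 normalised counts, r between the KO and WT log2FC was 0.855, as a description across genes, which are not independent replicates.

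On the axis WT libraries stood at 39.7, 41.5 and 40.9 at D3 and 45.4, 46.2 and 44.7 at D5, a change of 4.73. The KO change exceeded it by 3.58 (two-sided exact permutation test of the genotype labels within days, p = 0.065 over 400 arrangements, smallest 0.005), a test chosen after the values were seen. Taken within each replicate number the change was 8.62, 9.23 and 7.10 in KO and 5.69, 4.75 and 3.75 in WT, with the 3 KO changes above the 3 WT changes (two-sided exact permutation test, p = 0.1, the smallest that 20 arrangements allow). Neither test kept KO and WT libraries of the same number together, so both treat them as unmatched. By ESC-associated genes the WT change was 8.47 and by MEF-associated genes 2.25. The list counts of the 2 genotypes were as follows, and their difference was not tested. Of the pluripotency transcription factors 9 rose in WT beside 14 in KO, of the other pluripotency genes 11 beside 14, of the epithelial genes 18 beside 18, and of the fibroblast genes 5 fell beside 9. Of the cell cycle genes 1 rose and 15 fell in WT, beside 4 and 6 in KO.

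The difference between the KO and WT changes was tested gene by gene, and 10 of 15616 genes passed FDR < 0.05 (0.064%), all more positive in KO, 7 of them by more than 1 on the log2 scale (0.0448%). An unadjusted p under 0.05 was reached by 1039 of the 21436 genes with a p (4.85%), and edgeR called 2 genes, both more positive in KO. By both tools 0 genes were more negative in KO with the 36 libraries. With the replicate number as a block the count was 21, of which 1 gene was more negative in KO. The direction was less one-sided with only the 12 D3 and D5 libraries, where 68 genes were more positive and 22 more negative in KO, and with those and the block, where 196 were more positive and 134 more negative. Leaving out 1 library gave 4 (without D5 KO replicate 2 or D3 WT replicate 1) to 28 genes (without D5 WT replicate 1), and edgeR called Tfcp2l1 and Tk1. The lowest FDR was that of Tfcp2l1, which in WT had 55.0, 66.0 and 66.9 normalised counts at D3 and 349, 414 and 428 at D5 (log2FC 2.66, SE 0.19, FDR = 1.85e-40). Its KO change was larger by 1.70, SE 0.28, FDR = 9.54e-06. At D3 the KO libraries were all below the WT libraries, and at D5 the KO libraries were all above the D5 WT libraries. Trh in WT went from 29.3, 14.0 and 19.4 to 157, 133 and 96.8 (difference of change 1.90, SE 0.44, FDR = 0.0315).

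Tet1 moved in opposite directions, falling in WT from 149, 170.0 and 215 to 109.7, 90.8 and 168 normalised counts (log2FC -0.54, SE 0.20, FDR = 0.0348; difference 1.15, SE 0.28, FDR = 0.0482). Adam19, a metalloprotease, rose in KO from 473, 806 and 658 to 1078, 1886 and 1128 (log2FC 1.08, FDR = 3.96e-06) and went from 507, 627 and 708 to 433, 536 and 462 in WT, which did not pass the test (FDR = 0.217). The difference was 1.44, SE 0.30, FDR = 0.00438. Pced1b rose in both, from 30.1, 33.1 and 37.9 to 118, 152 and 134 in KO and from 51.3, 33.0 and 35.9 to 76.7, 63.0 and 62.5 in WT (difference 1.26, SE 0.27, FDR = 0.0102). Zdbf2, an imprinted gene, fell in both, from 326, 370.0 and 372 to 229.9, 176 and 202 in KO and from 411, 413 and 456 to 94.2, 130.0 and 127 in WT (difference 1.06, SE 0.20, FDR = 0.00112). Its KO libraries at D5 were all above the WT libraries, after a start below them at D3.

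The other 4 genes were named after their values were seen. Tk1 in WT went from 215, 278 and 229.7 to 416, 377 and 326 normalised counts (difference 0.97, SE 0.16, FDR = 9.54e-06). Ubxn11, which had under 80 in every library, rose in KO from 10.9, 17.0 and 11.7 to 55.3, 76.6 and 61.7 and went from 15.6, 14.0 and 5.81 to 4.85, 12.4 and 7.29 in WT (difference 2.83, SE 0.58, FDR = 0.00418). Pkmyt1, an inhibitory kinase of CDK1, rose in KO from 286, 282 and 284 to 439, 423 and 369 (difference 0.60, SE 0.14, FDR = 0.0315), and Ect2, a cytokinesis exchange factor, from 1938, 2018 and 2049 to 2611, 2905 and 2673 (difference 0.43, SE 0.10, FDR = 0.0441). In WT neither passed the test, at log2FC -0.07 and 0.02. Tk1, Pkmyt1 and Ect2 all act in the cell cycle, and Tk1 is the one on the cell cycle list.

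Tfcp2l1 was the one gene of the pluripotency lists that passed the test of the difference. Nanog in WT went from 2.75, 5.00 and 7.75 to 82.5, 106 and 125 normalised counts (log2FC 4.35, SE 0.40, FDR = 1.60e-25), and the difference of change was 0.90, SE 0.51, FDR = 1.00. Etv5 had a difference of 1.30, SE 0.33, FDR = 0.0636, just outside the threshold. Piwil2 had 33.0, 14.0 and 14.5 at D3 and 195, 251 and 210.3 at D5 in WT, and thus a lower level than KO at both days, with a difference of change of -0.18, SE 0.39, FDR = 1.00. An FDR above 0.05 does not show that the changes were alike.

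**Figure D5:**
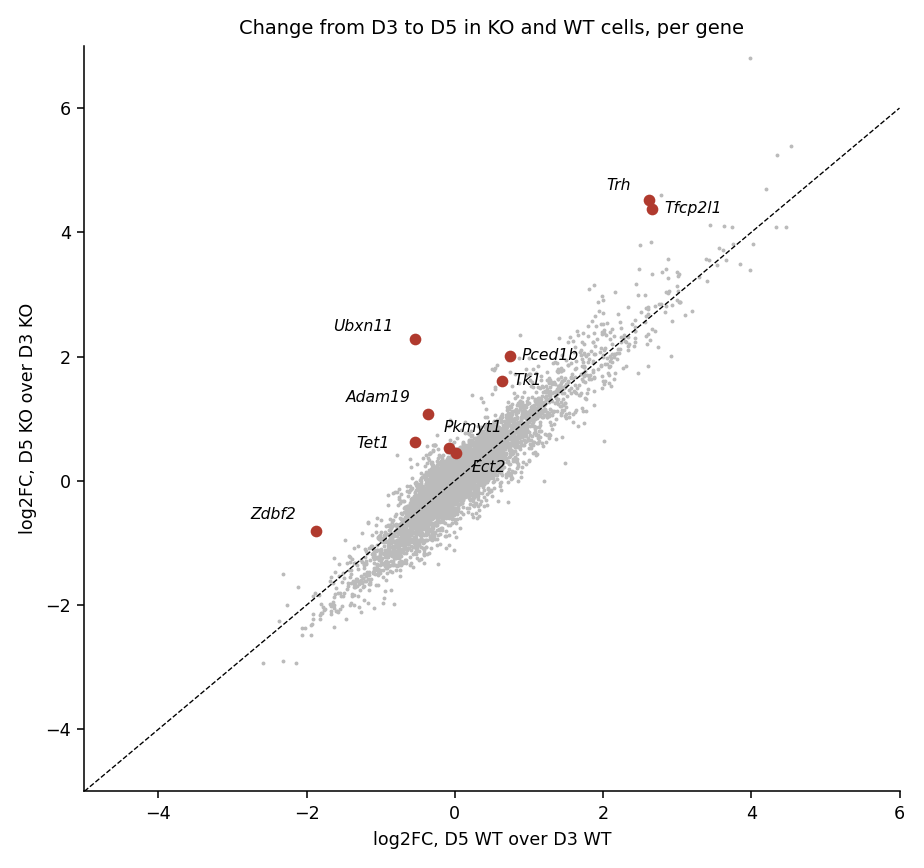
log2FC of D5 over D3 in KO (y axis) against WT (x axis) for genes with a mean of at least 100 normalised counts in one of the 4 groups (grey) and the 10 genes whose change differed (red, labelled), with the line of equal change dashed. All 10 lie above the line, Ubxn11 farthest at a difference of 2.83.

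Without strand in the counting, reads of overlapping genes on opposite strands cannot be told apart, and the strand setting of the counts was not stated. Of the genes named above, Pou5f1, Pax5, Chdh, Zdbf2, Adam19, Pced1b, Tk1, Ubxn11, Pkmyt1, Tbx3, Sall4, Lin28a, Trim71, Tdh, Sox15, Otx2, Col5a1, Fn1, Fbn1, Lox, Icam1, Zeb1, Twist2, Runx2, Cldn3, Esrp1, Grhl2, Ovol1, Dsp, Jun, Jund, Fosl1, Tagln, Actn1, Cdc45, Cdkn1a, Cxcl10, Cxcl16, Tet2, Tdg, Suz12, Rbbp4, Slc2a1, Fdft1, Jak1, Stat3, Pim1, Tgfb2, H19, Igf2, Meg3, Rtl1, Mest, Csf1r, Des, Map2, Krt7, Sox17, Dab2 and Krt5 share exon positions with such a gene, and their values are uncertain to that extent.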

How the data were processed

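Messenger RNA of sorted cells was sequenced as single-end stranded libraries. The authors trimmed reads with Cutadapt, mapped them to GRCm38.p6 with STAR and deposited raw read counts per gene from Rsubread, whose strand setting and annotation release are not given in the sources used here. The table held 21442 genes, 21417 of which were found in GENCODE M21. The deposited normalised values, log matrix and KO-versus-WT fold changes and p-values were not used. Groups and replicate numbers came from the sample titles.

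DESeq2 1.42.0 in R 4.3.3 was fitted to the counts of all 36 libraries with 1 factor of 12 groups of 3 (median-ratio size factors, Wald test, no shrinkage), as in the study. FDR is Benjamini-Hochberg over all genes tested, 422 genes without one were left out, and DEGs had FDR < 0.05 and log2FC > |1|. The KO-minus-WT difference was an interaction contrast, called by FDR < 0.05. On simulated counts of 21442 genes with 200 changed, DESeq2 recovered 197 in the KO contrast with 2 false calls and 190 in the interaction with 24. Those 24 are a larger share of the interaction calls than the threshold of 0.05. The planted changes lay in genes well above the counting floor and were larger than the differences of most interaction genes named above. Recovery of smaller changes or of low genes was not tested. edgeR 4.0.16 was an alternative.

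Same-numbered D3 and D5 KO libraries deviated together (correlation over genes 0.172 to 0.233, differently numbered -0.176 to -0.0421). The labels state no pairing, and the numbers served as pairs only in the replicate block and in the axis changes per number. The main fit and the other axis tests were unpaired. Same-numbered KO and WT libraries correlated at 0.101 to 0.456 at D3 and 0.0897 to 0.268 at D5. Differently numbered ones had -0.377 to 0.126 and -0.227 to 0.0160. Library preparation batches are mentioned by the study but not in the labels, so no within-batch value could be given. The axis is a projection of log2(normalised count + 1) on the WT ESC minus WT MEF difference. The libraries compared and the gene lists were chosen with earlier results of these data known, and the lists are described by counts and medians without a set test. Named were Zfp266, the transgene factors, the 6 rising and 6 falling DEGs with the lowest FDR and with the largest change (mean of at least 100 normalised counts, groups not overlapping), list members, and the interaction genes by the same level rule. Alternatives for the WT comparison and the axis difference test were added after seeing the data. Of 458 list entries 9 were not analysed here.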

Additional observations from a re-analysis of the deposited data

Results flagged for a closer look

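For 10 genes the change from D3 to D5 differed between KO and WT cells by the interaction test (FDR < 0.05), all more positive in KO. Tfcp2l1 differed by 1.70 on the log2 scale and Tk1 by 0.97, and edgeR called these 2 genes as well. Both kept the call under every alternative that gave them an FDR. Zdbf2 differed by 1.06, since it fell less in KO, with an edgeR FDR of 0.0587. Adam19 differed by 1.44 and Pced1b by 1.26, and without D5 KO replicate 2 their FDR was 0.203 and 0.139. Trh differed by 1.90, with an edgeR FDR of 0.823 and an FDR of 0.345 without D5 KO replicate 2. Tet1 differed by 1.15, with a rise in KO and a fall in WT, and its FDR without D5 KO replicate 2 was 0.632. Ubxn11 differed by 2.83, with at most 77.0 normalised counts in a library and an edgeR FDR of 0.143. Pkmyt1 differed by 0.60 and Ect2 by 0.43, with FDRs of 0.206 and 0.532 without D5 KO replicate 2. What sets these differences was not tested.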

How the results depend on the processing

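The counts of D3-to-D5 KO DEGs and the axis shift stayed within 1.5 times their value under every scaling, filter, test and left-out library tried, apart from the fold threshold itself. A Wald test against an absolute log2FC of 1 called 345 genes (284 higher and 61 lower), of which 66.5% of the rising genes were ESC-associated and 83.6% of the falling genes MEF-associated, and an FDR below 0.05 alone called 6158 (3047 higher and 3111 lower). The count of genes whose KO change differed from the WT change rested on the fit: it was 2 with edgeR, 21 (20 more positive in KO and 1 more negative) with a replicate block, 90 (68 and 22) with only the 12 libraries, 330 (196 and 134) with those 12 and the block, and 4 to 28 when 1 of the 12 libraries was left out (5 and 4 without D3 KO replicate 2 and D5 KO replicate 2, 17 and 20 without D5 KO replicates 1 and 3, 4 and 17 without D3 WT replicates 1 and 3, and 28, 5 and 6 without D5 WT replicates 1, 2 and 3). The cause was not tested. The alternatives on the WT change were chosen after seeing the data. With the replicate block over 36 libraries 1924 DEGs were called, and of the named genes called without it Fbn1 and Fosl1 lost the call (FDR = 0.0509 and 0.0549) and the others kept it, while Krt14 gained one (FDR = 0.00851). Of 768 list counts 595 were equal to their value and 744 within 2 members, and the largest move, 9 members, was that of cholesterol synthesis genes with only the 6 libraries. Over the 162 named genes that were called, 1890 of 1944 alternative values kept direction and call, 54 lost the call and 0 reversed. Of 22 named genes not called, 14 gained the call under at least 1 alternative, all 14 with only the 6 libraries and the block, and 5 changed sign when 1 library was left out, with log2FC from -0.030 to 0.25 for Icam1 (negative without D3 KO replicate 1), -0.095 to 0.32 for Cldn3 (negative without D3 KO replicate 1 or D5 KO replicate 3), -0.17 to 0.10 for Tagln (positive without D3 KO replicate 2), -0.24 to 0.068 for Igf2 (positive without D3 KO replicate 1 or D5 KO replicate 3) and -0.047 to 0.30 for Krt5 (negative without D5 KO replicate 1). Depth limits the low genes: the fall of Batf3, for example, rests on means of 10.9 and 1.56 normalised counts.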

Other observations

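Krt8 and Krt18 encode keratins that form filaments as partners, and both rose, but their levels were far apart. Krt8 had 17905, 18211 and 21302 normalised counts at D3 KO and 49460.3, 47918 and 47400.0 at D5 KO, and Krt18 64.3, 69.9 and 59.3 and 300.4, 361 and 323. Per kilobase of exon the D5 levels were 24647 for Krt8 and 228 for Krt18. In KO MEFs the order of the counts was the other way, 353 for Krt8 and 1642 for Krt18, and in KO ESCs the means were 249 and 284. Whether reads of Krt18 were lost to copies of the gene was not tested.

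Levels of the pluripotency factors at D5 KO were also uneven. Per kilobase of exon Sall4 stood at 424, Esrrb at 240.3, Nanog at 127 and Tfcp2l1 at 94.7 normalised counts. At D3 the same genes stood at 92.2, 13.9, 3.39 and 4.60. Sall4 was the highest of the 4 at both days.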
